A study of Mus musculus with 9 samples.

Results

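The genes described here are the 9 mouse genes Mcm2 to Mcm10, in bulk RNA sequencing of sorted hippocampal cells. They share the name minichromosome maintenance (MCM) and are called the MCM family here by that name. They were found by their Ensembl identifiers among the 55421 genes of the count table. All 9 were present and all 9 passed the filter on low counts, which left 20032 genes. The family was chosen by measured values of these libraries, because Mcm6 alone was higher in the injured libraries of both genotypes. Its levels against sham are therefore given as a description, without a test, and the one tested comparison is that of the knockout with wild type among injured mice.

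The 3 groups held 3 libraries each. They were Tmsb4x conditional knockout mice after mild traumatic brain injury (called CKO mTBI here), wild-type mice after that injury (WT mTBI) and wild-type mice operated without the impact (sham). Tmsb4x encodes thymosin beta 4, a peptide that binds actin monomers. The injury was 1 mild controlled cortical impact. Per the labels, all mice carried the red fluorescent protein tdTomato in neurons, and live tdTomato-positive cells were sorted from trypsin-dissociated hippocampus. The labels give no sex, age, time after injury, Cre driver or deleted part of Tmsb4x, and there was no sham group of the knockout. Each group is given as 3 mice, with nothing further on how the libraries of a group were made.

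MCM2 to MCM7 form the ring-shaped helicase that is loaded at replication origins in G1 phase and that, with CDC45 and the GINS complex, unwinds DNA at the fork. MCM10 helps to activate that helicase, while MCM8 and MCM9 form a separate helicase used in homologous recombination. The subunit genes are textbook targets of E2F transcription factors and are high in dividing cells, whereas mature neurons do not divide. In the adult hippocampus, dividing progenitors are found in the dentate gyrus.

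The 250 bases before the RefSeq start (GRCm38.p6) of 4 subunit genes are shown so that Mcm6, which stood apart from the other subunits in these libraries, can be set beside 2 subunits that hold E2F-type words upstream and 1 that holds none. RefSeq promoters were matched by symbol for 8 of the 9 genes, all but Mcm4. Capitals mark the E2F-type words TTTCCCGC, TTTCGCGC, TTTGCCGC or TTTGGCGC on either strand, and capitals longer than 8 bases are overlapping matches on both strands.
Mcm6, chr1:128359706-128359955, minus strand: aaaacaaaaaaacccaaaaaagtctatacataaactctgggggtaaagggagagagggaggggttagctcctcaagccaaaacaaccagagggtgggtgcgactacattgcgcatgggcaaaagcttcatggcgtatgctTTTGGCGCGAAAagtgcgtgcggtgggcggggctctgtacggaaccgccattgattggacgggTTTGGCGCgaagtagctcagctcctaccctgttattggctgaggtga
Mcm5, chr8:75109259-75109508, plus strand: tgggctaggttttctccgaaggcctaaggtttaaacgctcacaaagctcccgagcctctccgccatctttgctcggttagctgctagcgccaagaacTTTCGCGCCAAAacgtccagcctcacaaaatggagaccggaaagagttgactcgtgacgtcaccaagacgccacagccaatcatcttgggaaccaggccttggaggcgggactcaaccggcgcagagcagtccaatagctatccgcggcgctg
Mcm7, chr5:138171884-138172133, minus strand: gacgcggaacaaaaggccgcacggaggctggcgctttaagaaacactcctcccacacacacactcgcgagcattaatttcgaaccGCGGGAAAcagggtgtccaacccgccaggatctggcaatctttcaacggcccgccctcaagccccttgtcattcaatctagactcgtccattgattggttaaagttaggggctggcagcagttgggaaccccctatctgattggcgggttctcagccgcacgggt
Mcm2, chr6:88898781-88899030, minus strand: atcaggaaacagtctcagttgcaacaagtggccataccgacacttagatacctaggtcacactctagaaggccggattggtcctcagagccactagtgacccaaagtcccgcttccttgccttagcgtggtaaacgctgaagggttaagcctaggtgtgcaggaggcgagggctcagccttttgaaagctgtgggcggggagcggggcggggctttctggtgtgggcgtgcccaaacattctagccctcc

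Over the window from 250 bases before to 50 bases after the start, Mcm6 held 3 such words, of which the first and the second overlapped at -110 to -99 and the third lay at -47 to -40 from the start. Mcm3, Mcm5 and Mcm7 held 2 each and Mcm8 held 1. The words of Mcm3 and Mcm8 and 1 of the 2 of Mcm7 lay after the start. The 2 words of Mcm5 overlapped, at -153 to -142. Mcm2, Mcm9 and Mcm10 held none in this window. Of all 32851 RefSeq promoters of that length, 2.26% held at least 1 such word. The CCAAT box (CCAAT, either strand) was in all 8 matched MCM promoters and in 37.4% of all promoters, and Mcm6 held 2 of them. The GC box (GGGCGG) was in 7 of the 8, all but Mcm5, and in 35.7% of all. The cell-cycle element TTTGAA was in Mcm2 only among the 8, and in 17.9% of all. A second RefSeq start of Mcm7 held no E2F-type word. These matches describe letters, not binding.

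Totals were 36452443 to 39590872 counts per library. Tmsb4x, the gene deleted in the knockout, stood at 1.83, 2.79 and 2.77 CPM (counts scaled by library size and TMM factor) in CKO mTBI, at 899, 552 and 297 CPM in WT mTBI, and at 2.72, 1.68 and 2.22 CPM in the 3 labelled as sham of the wild type. It was lower in CKO mTBI than in WT mTBI (log2 -7.88, SE 0.43, adjusted p = 2.07e-05, edgeR). WT mTBI was likewise above sham (log2 8.04, SE 0.43, adjusted p = 1.89e-05, edgeR), while the CKO mTBI and sham libraries overlapped (log2 0.15, SE 0.43, adjusted p = 0.999). The wild-type label of the sham libraries is therefore in doubt, and their genotype was not tested. Every direction given against sham is against libraries so labelled. The biological coefficient of variation over genes was 18.7% in CKO mTBI, 19.6% in WT mTBI and 3.27% in sham. One spread per gene was fitted over all 3 groups, and what set the small spread of the sham libraries was not tested. The labels give 3 mice, but the sham libraries may not be independent samples, in which case SD with n = 3, SE and p-values against sham are too small. Choroid plexus markers (9 genes, summed) spanned 234 to 4991 CPM in CKO mTBI, with 234 CPM in replicate 1, and 4401 to 6179 CPM in WT mTBI, against 219 to 221 CPM in sham. Xist, a transcript of female cells, was at 834 CPM in WT mTBI replicate 3 and at most at 0.892 CPM in the other 8 libraries. Neuronal markers (8 genes) summed to 9838 to 10347, 9031 to 10415 and 10260 to 10495 CPM in CKO mTBI, WT mTBI and sham. Oligodendrocyte markers (6 genes) were also abundant, at 6217 to 7344, 5014 to 9188 and 6421 to 6464 CPM in the same order, with Mbp, a myelin protein gene, between 2345 and 4087 CPM. In bulk libraries, fewer cells of a type and less RNA per cell cannot be told apart.

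Mcm6, the subunit that chose the family, is ENSMUSG00000026355 on chromosome 1 (GRCm38, 128331590 to 128359664, minus strand), and none of its exons overlaps another annotated gene. It stood at 11.3, 11.8 and 17.3 CPM in CKO mTBI replicates 1 to 3, from 431, 463 and 674 counts. In WT mTBI it stood at 18.1, 10.6 and 16.7 CPM, from 706, 418 and 671 counts. In the sham libraries it stood at 5.40, 6.20 and 5.52 CPM, from 208, 225 and 211 counts. The lowest injured library, WT mTBI replicate 2, was above the highest sham library, and the injured libraries of the 2 genotypes overlapped one another. Means were 13.5 ± 3.33 CPM in CKO mTBI, 15.2 ± 3.96 CPM in WT mTBI and 5.70 ± 0.431 CPM in sham (SD, n = 3 each).

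These levels gave a log2 fold change over sham of 1.24 (SE 0.22, 2.36-fold) in CKO mTBI and of 1.41 (SE 0.22, 2.66-fold) in WT mTBI. Both values use the same sham libraries, and both are values that chose the gene. By size alone, 1.57% of the genes tested had a larger log2 fold change than Mcm6 in CKO mTBI over sham, and 1.21% in WT mTBI over sham. Leaving out any 1 library moved the first value between 1.02 and 1.35 and the second between 1.26 and 1.60. Without WT mTBI replicate 3, the library with Xist, the wild-type value was 1.32.

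The spread of Mcm6 among libraries is given as a description of the values that chose it. Its coefficient of variation was 24.8% in CKO mTBI and 26.1% in WT mTBI, against 6.19% and 5.78% when each fragment gives 2 counts. In sham it was 7.55%, against 9.65% from counting. Over all genes, the biological coefficients of variation were the 18.7%, 19.6% and 3.27% given above. Those leave out the spread from counting, which the values of Mcm6 include, so they are not compared directly. CKO mTBI replicate 3 and WT mTBI replicates 1 and 3 were the high libraries, at 16.7 to 18.1 CPM. The other 3 injured libraries, at 10.6 to 11.8 CPM, still stood apart from sham.

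**Figure D1:**
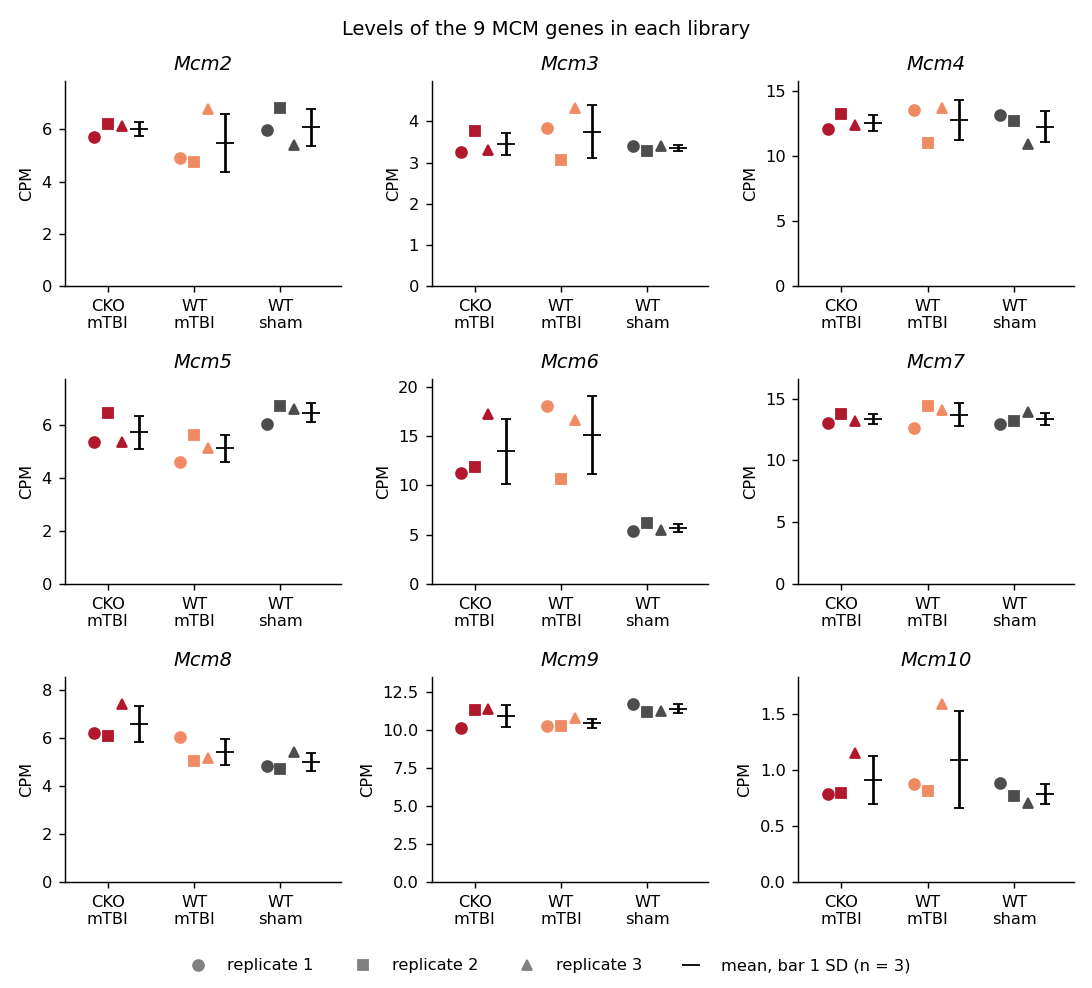
Levels in CPM (vertical axes from 0) of the 9 MCM genes in the 3 libraries of each group (CKO, Tmsb4x conditional knockout; WT, wild type), with symbols for replicates and the mean and SD (n = 3) at the right of each group. Mcm6 lies at 10.6 to 18.1 CPM in the 6 injured libraries and at 5.40 to 6.20 CPM in sham.

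The partners of Mcm6 in the ring did not have this pattern. Mcm2, whose N-terminal part also binds histones, stood at 5.72, 6.21 and 6.13 CPM in CKO mTBI, at 4.90, 4.76 and 6.77 CPM in WT mTBI and at 5.99, 6.83 and 5.42 CPM in sham, with all groups overlapping. Mcm3, a ring subunit that sits next to Mcm5 and Mcm7, ranged over 3.27 to 3.76 CPM in CKO mTBI, 3.06 to 4.33 CPM in WT mTBI and 3.28 to 3.40 CPM in sham. Mcm4, a partner of Mcm6 and Mcm7 in the subcomplex with helicase activity of its own, ranged over 12.0 to 13.2, 10.98 to 13.7 and 10.9 to 13.1 CPM in the same order. Mcm7, the other gene of that subcomplex, ranged over 13.0 to 13.8, 12.6 to 14.4 and 12.9 to 13.9 CPM. For these 4 genes both injured groups overlapped sham.

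Mcm5, which forms the DNA entry gate with Mcm2, was lower in WT mTBI than in sham, without overlap. It stood at 5.36, 6.44 and 5.36 CPM in CKO mTBI, at 4.59, 5.61 and 5.13 CPM in WT mTBI and at 6.05, 6.72 and 6.59 CPM in sham. The log2 fold change of WT mTBI over sham was -0.34 (SE 0.14), and CKO mTBI overlapped sham (log2 -0.17, SE 0.14).

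Among the members outside the ring, Mcm8 stood at 6.19, 6.08 and 7.42 CPM in CKO mTBI, at 6.03, 5.02 and 5.18 CPM in WT mTBI and at 4.83, 4.71 and 5.42 CPM in sham. Its knockout libraries lay above all other libraries, with a log2 fold change over sham of 0.40 (SE 0.15). Mcm9, its partner helicase, ranged over 10.1 to 11.4, 10.3 to 10.8 and 11.2 to 11.8 CPM in CKO mTBI, WT mTBI and sham, and its WT mTBI libraries lay just below sham (log2 -0.13, SE 0.10). Exons of Asf1a on the other strand cover 19.2% of the exon length of Mcm9, and those of Ap4m1 7.25% of that of Mcm7. Strand was ignored in counting, so reads of these stretches cannot be assigned to one gene. Mcm10, which acts at helicase activation, was the lowest member, with 27 to 64 counts per library. It ranged over 0.784 to 1.16 CPM in CKO mTBI, 0.815 to 1.59 CPM in WT mTBI and 0.706 to 0.882 CPM in sham, with overlap between all groups.

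Over the 9 genes, Mcm6 was the 1 gene whose 6 injured libraries all lay above sham, and 0 lay below, while 3.64% and 3.99% of all genes tested did. In CKO mTBI against sham, Mcm6 and Mcm8 did not overlap with sham, both higher (8.75% of genes tested did so), and no member was lower in this way (8.4% of genes). In WT mTBI against sham, Mcm6 was higher without overlap (12.4% of genes), and Mcm5 and Mcm9 were lower (11.5% of genes). Nothing is read from these counts, since these contrasts chose the family. The other 8 members had a median log2 fold change of 0.02 in CKO mTBI over sham, from -0.17 to 0.40, with 4 positive and 4 negative. In WT mTBI over sham their median was 0.05, from -0.34 to 0.47, with 5 positive and 3 negative. The median over all genes tested was 0.01 and 0.02.

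**Figure D2:**
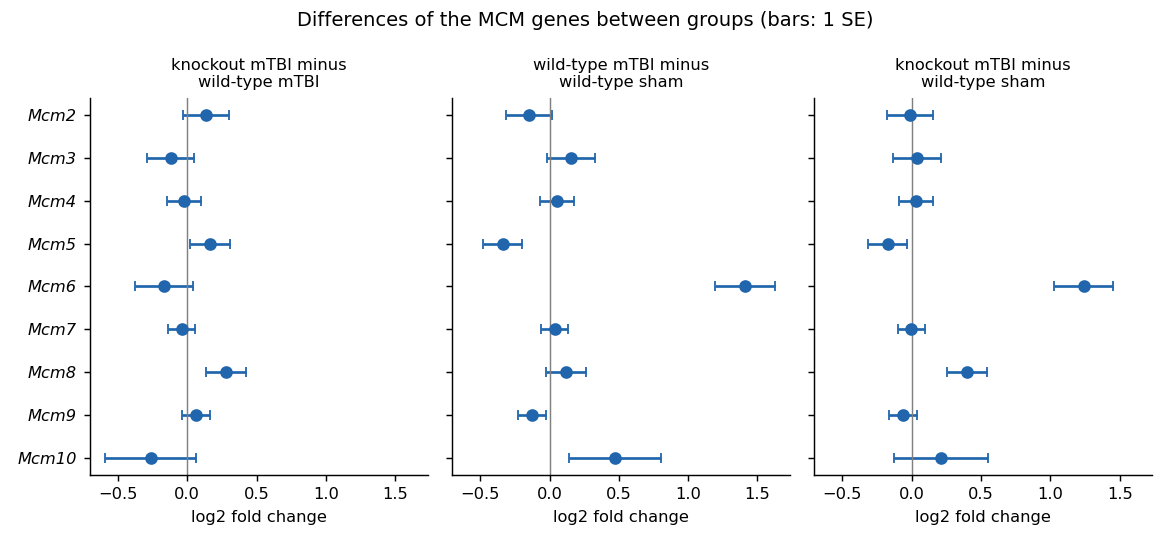
log2 fold change (horizontal axis) of the 9 MCM genes in 3 comparisons, as points with bars of 1 SE from the edgeR fit. Mcm6 stands at 1.24 in CKO mTBI and 1.41 in WT mTBI over sham and at -0.17 between the injured groups, and the other 8 genes lie between -0.34 and 0.47 throughout.

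Whether the knockout changed any MCM gene in injured mice was tested with the quasi-likelihood test of edgeR, adjusted by Benjamini-Hochberg over the 20032 genes. 0 of the 9 passed, in a comparison in which 3 genes did, 0.015% of those tested (0.00499% higher and 0.00998% lower). None had an unadjusted p under 0.05, as 6.60% of the genes tested did, and DESeq2 and limma voom called 0 of the 9 as well. For Mcm6 the log2 fold change of knockout over wild type was -0.17 (SE 0.21, 95% interval -0.63 to 0.29, adjusted p = 0.818), and an exact permutation test (two-sided, 3 against 3 libraries) gave p = 0.9, where the smallest possible is 0.1. The sign of this difference turned with limma voom (0.07) and without replicate 1 of both injured groups (0.09). The edgeR SE, intervals and p-values of this comparison use the spread fitted over all 3 groups. The small spread of sham enters them, so they may be too small or too narrow for the injured groups.

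Mcm8 had the smallest p of the family in this comparison. Its means were 6.56 ± 0.741 CPM in CKO mTBI and 5.41 ± 0.541 CPM in WT mTBI (SD, n = 3 each), and the groups did not overlap, as for 4.86% of genes tested in that direction. The log2 fold change was 0.28 (SE 0.14, 95% interval -0.04 to 0.60, adjusted p = 0.739 by edgeR) and did not pass. The remaining 7 members had log2 fold changes of -0.26 to 0.16. The widest interval was that of Mcm10, -0.99 to 0.46, and the narrowest that of Mcm7, -0.25 to 0.18.

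Levels of different genes were compared per kilobase of exon. In CKO mTBI the order of mean levels was Mcm4 (3.50 ± 0.168 CPM per kb), Mcm7 (3.01 ± 0.0896), Mcm6 (2.89 ± 0.714), Mcm8 (1.77 ± 0.199), Mcm5 (1.43 ± 0.156), Mcm9 (1.20 ± 0.0767), Mcm3 (0.918 ± 0.0724), Mcm2 (0.866 ± 0.0379) and Mcm10 (0.118 ± 0.0275). Neighbours in this order whose ranges of mean ± SD overlapped, called not apart here, were Mcm7 and Mcm6, Mcm8 and Mcm5, Mcm5 and Mcm9, and Mcm3 and Mcm2. In WT mTBI, Mcm6 was second at 3.25 ± 0.849 CPM per kb, not apart from Mcm4 (3.55 ± 0.428) above it or Mcm7 (3.10 ± 0.217) below it. In sham, Mcm6 was sixth at 1.22 ± 0.0923 CPM per kb, not apart from Mcm9 (1.25 ± 0.0325), and below Mcm5 (1.62 ± 0.0898). Mcm4 had the highest mean in all 3 groups, but in sham it was not apart from Mcm7 (3.42 ± 0.325 against 3.02 ± 0.116), and Mcm10 was the lowest member in all 3. These levels divide by the whole exon length, although reads on bases shared with other genes were not counted. Per kb of unshared exon, Mcm7 was at 3.45 ± 0.102, 3.54 ± 0.248 and 3.45 ± 0.132 CPM in CKO mTBI, WT mTBI and sham, and Mcm9 at 1.49 ± 0.0949, 1.42 ± 0.0405 and 1.55 ± 0.0403 CPM. By these means Mcm6 had rank 3, 3 and 6, Mcm9 was apart from it in sham and lay above Mcm5 in both injured groups, and Mcm7 lay above Mcm4 in sham. Among all genes tested, mean levels per kb over the 9 libraries lay between the 4.56 percentile for Mcm10 and the 53.1 percentile for Mcm4.

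The choice of the family by Mcm6 alone fixes that its share among the 6 ring subunits was higher in injured than in sham libraries, and the sizes are given as a description. The share of Mcm6 in the summed level per kb of Mcm2 to Mcm7 was 20.6%, 19.8% and 28.0% in CKO mTBI, 29.0%, 19.8% and 25.6% in WT mTBI, and 10.5%, 11.7% and 11.05% in sham. The other 5 subunits together stood at 9.72 ± 0.512 CPM per kb in CKO mTBI, 9.72 ± 0.624 in WT mTBI and 9.82 ± 0.274 in sham (SD, n = 3 each), and these groups overlapped. Relative to the mean of the other 5, Mcm6 was at 1.49 ± 0.394 in CKO mTBI, 1.67 ± 0.404 in WT mTBI and 0.622 ± 0.0364 in sham.

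**Figure D3:**
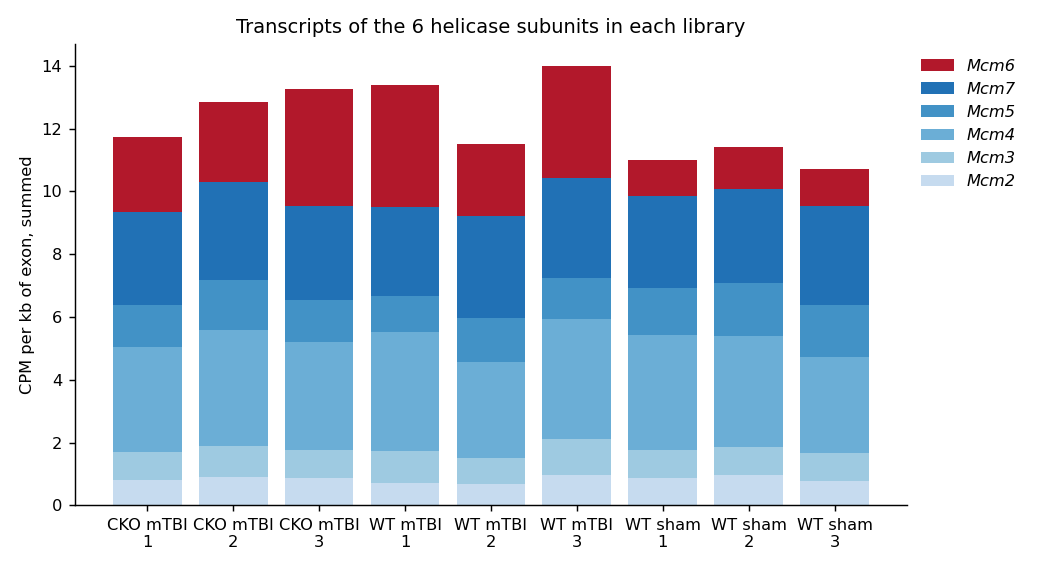
Summed level (CPM per kb of exon, vertical axis from 0) of the 6 helicase subunit genes in each of the 9 libraries, stacked by gene. The red part, Mcm6, takes 19.8% to 29.0% of the bar in the injured libraries and 10.5% to 11.7% in sham, while the blue parts sum to 9.22 to 10.4 CPM per kb throughout.

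The neighbours of Mcm6 on chromosome 1 were looked at because the gene stood alone in its family. Within 1 Mb, 11 protein-coding genes were tested, and 0 passed in any of the 3 comparisons. Lct, which encodes the intestinal enzyme lactase and lies next to Mcm6, was at 32.999, 35.5 and 42.5 CPM in CKO mTBI, at 36.5, 43.4 and 37.6 CPM in WT mTBI and at 35.8, 35.9 and 38.1 CPM in sham. In humans, introns of MCM6 hold a regulatory element of LCT, and in these libraries the levels of Lct overlapped between all groups. On the other side, Dars, the cytosolic aspartyl-tRNA synthetase gene, was at log2 -0.07 (SE 0.10) in CKO mTBI and 0.02 (SE 0.10) in WT mTBI over sham. Ubxn4, R3hdm1, Rab3gap1, Ccnt2, Map3k19, Tmem163 and Zranb3 had log2 fold changes of -0.34 to 0.10 over sham. The chemokine receptor gene Cxcr4 was at -0.48 (SE 0.20, adjusted p = 0.627) and -0.45 (SE 0.20, adjusted p = 0.368), and Acmsd, at a mean of 0.254 CPM, at -0.71 and -1.31 with SE of 0.58 and 0.60.

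**Figure D4:**
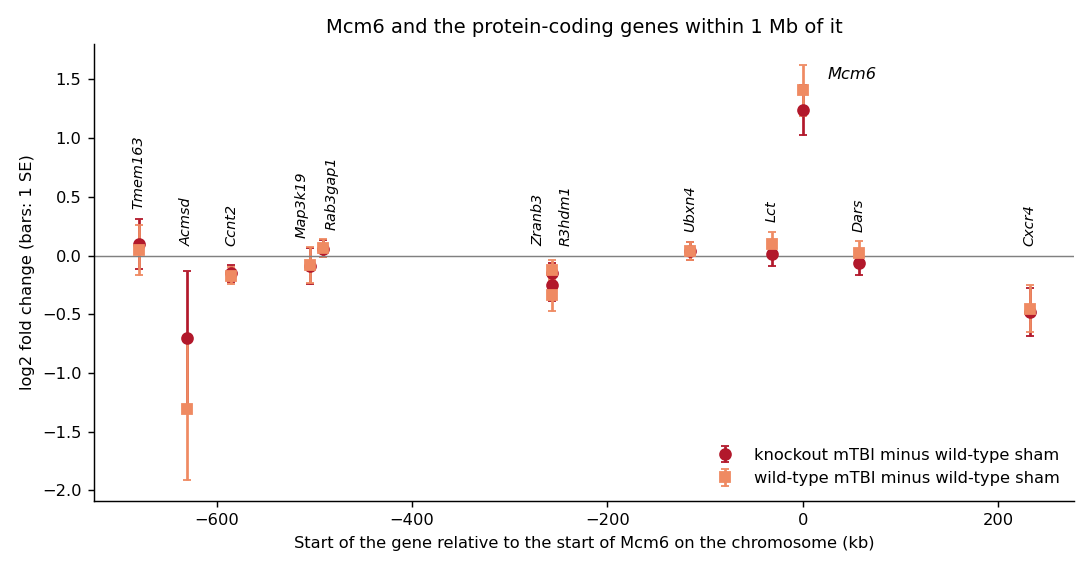
log2 fold change over sham (vertical axis, bars of 1 SE) of Mcm6 and the 11 tested protein-coding genes within 1 Mb, against the distance of each gene's start from that of Mcm6 in kb. Mcm6 stands at 1.24 and 1.41, and the highest of the neighbours at 0.10.

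Of the 107 genes in 7 lists around replication, all were tested, and 0 were called in CKO over WT mTBI (background 0.015%), 0 in WT mTBI over sham (background 0.509%, with 0.384% higher and 0.125% lower) and 0 in CKO mTBI over sham (background 0.0699%, with 0.0499% higher and 0.02% lower), by edgeR, and 0 by DESeq2 and by limma voom. At an unadjusted p under 0.05, the lists, of 11 to 27 genes, held between 0 and 3 genes in a comparison. The 3 were among the 13 E2F and pocket protein genes in CKO over WT mTBI, and every other count was at most 2. Of all genes tested, 6.60% were under it in CKO over WT mTBI, 13.2% in WT mTBI over sham and 7.20% in CKO mTBI over sham. The lists were drawn up with results of these data known, and no list was tested as a set.

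Origin recognition and licensing (11 genes, Orc1 to Orc6, Cdc6, Cdt1, Gmnn, Gmnc and Mcmbp) had a median log2 fold change of 0.05 in CKO mTBI and 0.04 in WT mTBI over sham. Gmnn, which encodes geminin, the inhibitor of the loading factor Cdt1, was at 1.72, 1.89 and 1.41 CPM in CKO mTBI, 2.74, 1.68 and 1.34 CPM in WT mTBI and 1.14, 0.992 and 1.57 CPM in sham (adjusted p = 0.925 and 0.396 over sham). Cdc6, which loads the helicase, was at 0.721 ± 0.201 CPM in CKO mTBI and 0.968 ± 0.283 CPM in WT mTBI, and Orc6, an origin subunit, was at log2 0.18 (SE 0.13) in CKO mTBI over sham. Mcmbp, which encodes a binding partner of MCM proteins, lay at 29.3 to 32.2 CPM over the 9 libraries. Gmnc, a geminin relative that drives multiciliated cells, was at 2.85, 7.62 and 7.11 CPM in CKO mTBI, 4.28, 8.18 and 7.74 CPM in WT mTBI and 3.92, 4.85 and 4.11 CPM in sham. It passed over sham when replicate 1 of both injured groups was left out, a count over the lists added after seeing the data. The values were log2 0.78 (adjusted p = 0.0225) in CKO mTBI and 0.89 (adjusted p = 0.00764) in WT mTBI, by edgeR. The libraries left out held the lowest Gmnc of their groups, at 2.85 and 4.28 CPM. Leaving them out favours a pass, so nothing is read from it. Choroid plexus markers were at sham level in CKO mTBI replicate 1. Ependymal markers (7 genes) were at 27.3 to 43.2, 45.4 to 50.6 and 30.8 to 31.4 CPM in CKO mTBI, WT mTBI and sham. In WT mTBI replicate 1, Gmnc also lay within the range of sham or below it. There, however, choroid plexus markers summed to 4401 CPM and ependymal markers to 50.6 CPM, the highest ependymal sum of all libraries. The part of these cell types in the values of Gmnc was not tested.

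Helicase partners and firing factors (13 genes) had medians of -0.12 and 0.01 over sham. Wdhd1, a fork scaffold, was at 6.17, 7.59 and 6.75 CPM in CKO mTBI, at 6.97, 6.78 and 6.89 CPM in WT mTBI and at 8.25, 8.37 and 8.03 CPM in sham, lower without overlap in both injured groups but not called (adjusted p = 0.694 and 0.394). Topbp1, a firing factor and checkpoint activator, was at 22.3 to 24.7, 24.3 to 27.2 and 26.1 to 27.3 CPM in the 3 groups (adjusted p = 0.735 for CKO mTBI over sham). Recql4, a helicase needed for firing, stood at log2 -0.53 (SE 0.25) in WT mTBI over sham, and Gins1, a GINS subunit at 0.441 to 1.26 CPM, at -0.92 (SE 0.36, adjusted p = 0.732) in CKO over WT mTBI. Cdc45, which joins MCM2 to MCM7 and GINS in the active helicase, ranged over 1.18 to 2.15, 1.40 to 2.44 and 1.51 to 1.92 CPM in CKO mTBI, WT mTBI and sham.

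Replication fork enzymes (27 genes) had medians of 0.03 and 0.09 over sham. Pcna, the sliding clamp, was at 36.6, 36.8 and 35.0 CPM in CKO mTBI, at 47.1, 35.4 and 38.5 CPM in WT mTBI and at 36.6, 35.0 and 36.9 CPM in sham. Timeless, of the fork protection complex, was at log2 0.41 (SE 0.15) in CKO over WT mTBI and at -0.39 (SE 0.15) in WT mTBI over sham, with adjusted p of 0.732 and 0.293. Pole4, a small subunit of DNA polymerase epsilon, was at log2 0.33 (SE 0.12, adjusted p = 0.276) in WT mTBI over sham, with 35.0 CPM in replicate 1 against 22.1 to 26.3 CPM in the other 8 libraries. Pole, the catalytic subunit of that polymerase, was at log2 0.53 (SE 0.24, adjusted p = 0.691) and Rpa3, of the single-strand binding protein RPA, at 0.41 (SE 0.26) in CKO mTBI over sham. Rpa3 stood at 8.78, 5.90 and 4.21 CPM in CKO mTBI replicates 1 to 3, against 4.33 to 5.23 CPM in sham.

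Genes of nucleotide supply and replication-coupled chromatin (12 genes) had medians of 0.00 and 0.01 over sham, with Chaf1a, a subunit of a histone chaperone, at 0.34 (SE 0.19) and 0.43 (SE 0.19). Tk1, thymidine kinase of S phase, was at 2.06, 3.66 and 1.77 CPM in CKO mTBI, at 0.949, 1.86 and 1.87 CPM in WT mTBI and at 2.21, 2.37 and 2.49 CPM in sham, with overlap between the injured groups. Rrm2b, a ribonucleotide reductase subunit of cells outside S phase, was at log2 0.17 (SE 0.08, adjusted p = 0.732) in CKO over WT mTBI.

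E2F and pocket protein genes (13 genes) had medians of 0.02 and 0.06 over sham. E2f1, an activator of replication genes, was at 4.94, 4.96 and 5.31 CPM in CKO mTBI, at 7.62, 6.50 and 5.67 CPM in WT mTBI and at 4.98, 5.56 and 5.00 CPM in sham. Its WT mTBI libraries lay above the other 6, with log2 -0.38 (SE 0.15, adjusted p = 0.732) in CKO over WT mTBI and 0.35 (SE 0.15, adjusted p = 0.336) in WT mTBI over sham, and neither passed. Mcm6 was high in both injured groups, by the values that chose it, and the link of E2f1 with Mcm6 was not tested. Rb1, the retinoblastoma pocket protein, was at log2 -0.24 (SE 0.08, adjusted p = 0.497) in CKO mTBI over sham, and Tfdp2 at 0.27 (SE 0.08, adjusted p = 0.732) in CKO over WT mTBI.

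Mitotic and cycling-cell genes (16 genes) had medians of -0.02 and 0.18 over sham and of -0.19 in CKO over WT mTBI. Mki67, the common marker of dividing cells, was at 3.42, 5.67 and 4.34 CPM in CKO mTBI, at 2.36, 4.10 and 5.92 CPM in WT mTBI and at 5.22, 5.04 and 4.68 CPM in sham. The library lowest in Mki67, WT mTBI replicate 1, was the highest in Mcm6, and the library highest in Mki67, WT mTBI replicate 3, was also among the 3 high in Mcm6. The link of Mki67 with Mcm6 was not tested. Top2a, a topoisomerase of dividing cells, ranged over 1.23 to 2.51, 1.86 to 3.39 and 2.26 to 2.93 CPM, and the mitotic cyclin gene Ccna2 was at log2 -0.37 (SE 0.21) and -0.35 (SE 0.21) over sham. Bub1b, of the spindle checkpoint, was at 0.716 to 2.82 CPM over the 9 libraries, with its highest value in CKO mTBI replicate 3, and Cdc20, an activator of the anaphase-promoting complex, at 0.409 to 1.23 CPM. Markers of immature neurons and progenitors (9 genes) summed to 101 to 117 CPM in CKO mTBI, 115 to 149 CPM in WT mTBI and 135 to 138 CPM in sham.

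Recombination genes listed as partners of Mcm8 and Mcm9 (15 genes) had medians of 0.06 and 0.05 over sham. Mcmdc2, a meiotic relative of the MCM genes, was at 2.59, 1.76 and 3.11 CPM in CKO mTBI, at 1.72, 2.88 and 1.49 CPM in WT mTBI and at 3.68, 3.17 and 3.85 CPM in sham, below sham in every injured library but not called (adjusted p = 0.796 and 0.251). Psmc3ip, a meiotic recombination cofactor, stood at 14.8 CPM in CKO mTBI replicate 1 and at 2.25 to 3.26 CPM in the other 8 libraries.

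**Figure D5:**
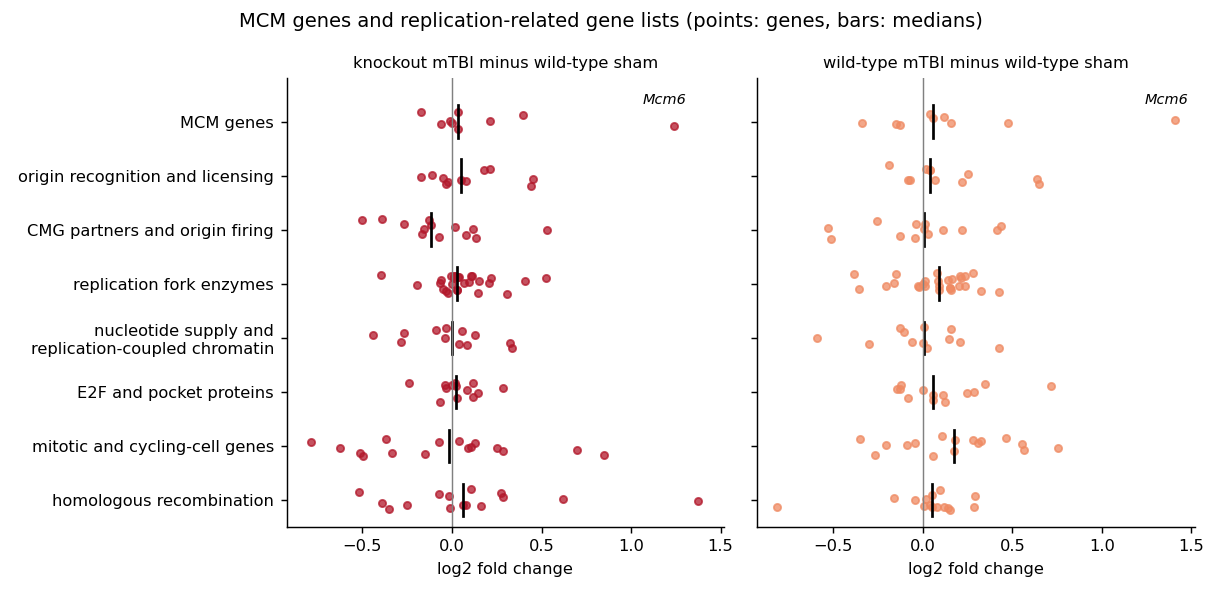
log2 fold change over sham (horizontal axes) of the 9 MCM genes and of the 7 gene lists, with 1 point per gene and a bar at each median, for CKO mTBI (left) and WT mTBI (right). List medians lie between -0.12 and 0.18, and Mcm6 is at 1.24 and 1.41.

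Markers of other cell types were set beside Mcm6. In CKO mTBI replicate 1 choroid plexus markers summed to 234 CPM, close to the 219 to 221 CPM of sham, and Mcm6 was at 11.3 CPM, about as in CKO mTBI replicate 2 (11.8 CPM), where they summed to 4991 CPM. In WT mTBI replicate 2, with the highest choroid sum of 6179 CPM, Mcm6 was the lowest of the injured libraries. Oligodendrocyte markers summed to 7216, 5014 and 9188 CPM in WT mTBI replicates 1 to 3, where Mcm6 was 18.1, 10.6 and 16.7 CPM, and to 6217, 7344 and 6302 CPM in CKO mTBI replicates 1 to 3, where it was 11.3, 11.8 and 17.3 CPM. Thalamic and habenular markers (7 genes) were at 198 to 328, 149 to 249 and 128 to 133 CPM in CKO mTBI, WT mTBI and sham, higher in every injured library, also without Prkcd, the most abundant of them (124 to 232, 104 to 167 and 95.3 to 95.98 CPM). Endothelial markers (6 genes) were at 538 to 607, 601 to 666 and 498 to 524 CPM, of which Bsg alone held 329 to 506 CPM. Without Bsg, the other 5 summed to 176 to 208, 161 to 189 and 169 to 181 CPM, with overlap between all groups. Blood and leukocyte markers (7 genes) were at 78.3 to 92.6, 38.6 to 158 and 54.7 to 58.9 CPM. Astrocyte markers (7 genes) were at 4399 to 5008, 4034 to 4766 and 5062 to 5155 CPM, of which Slc1a2 alone held 2008 to 2973 CPM. Without Slc1a2, the other 6 summed to 1870 to 2214, 1843 to 2208 and 2159 to 2189 CPM, and both injured groups overlapped sham. Microglial markers (8 genes) were at 222 to 278, 215 to 257 and 233 to 235 CPM, mural and fibroblast markers (7 genes) at 255 to 325, 253 to 318 and 310 to 317 CPM, oligodendrocyte precursor markers (5 genes) at 170 to 216, 155 to 247 and 203 to 211 CPM, and markers of hippocampal subfields (8 genes) at 865 to 930, 806 to 937 and 929 to 949 CPM. Ttr, the defining gene of choroid plexus, was at 23.0 CPM in CKO mTBI replicate 1 and at 2746 to 4110 CPM in the other 5 injured libraries, against 16.5 to 17.5 CPM in sham. Enpp2, also of the choroid list, was at 178 CPM in CKO mTBI replicate 1 and at 171 CPM in each sham library. It alone held most of the choroid sum there, and it was at 1115 to 1829 CPM in the other 5 injured libraries. Only the blood list had a gene at 0 in any library, with at most 1 per library. The part of these cell types in the levels of Mcm6 was not tested.

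The genes whose log2 CPM followed Mcm6 most closely over the 9 libraries, among 13592 genes of mean CPM of at least 1, were Mapkapk2 (Pearson r = 0.98), Os9 (0.96), Per1 (0.95), Ctdspl (0.94) and Car14 (0.94). The libraries fall into groups, so that the difference from sham enters every r, and within the 6 injured libraries the same genes had r of 0.98, 0.86, 0.76, 0.83 and 0.75. These 6 libraries were among those by which the genes were picked, which favours a high r there as well. Mapkapk2, a stress-activated kinase downstream of p38, was at 28.1, 29.3 and 32.2 CPM in CKO mTBI, 32.8, 28.7 and 31.9 CPM in WT mTBI and 24.8, 26.4 and 24.3 CPM in sham. Mapkapk2 lies on chromosome 1, as Mcm6 does, but outside the 1 Mb looked at above. The other genes named lie on other chromosomes. Whether position has a part in the likeness of Mapkapk2 was not tested. The high libraries of Mapkapk2 were those of Mcm6, but its range was narrower, with a log2 fold change over sham of 0.25 (SE 0.09) and 0.31 (SE 0.09). Per1, a circadian clock gene, was at 88.7, 87.4 and 103 CPM in CKO mTBI, 97.4, 95.0 and 108 CPM in WT mTBI and 73.6, 74.0 and 74.95 CPM in sham. Os9, of quality control in the endoplasmic reticulum, was at 152 to 156, 152 to 165 and 138 to 143 CPM, and Ctdspl, a small phosphatase, at 32.8 to 37.0, 33.8 to 35.6 and 27.3 to 31.0 CPM in CKO mTBI, WT mTBI and sham. Car14, a membrane carbonic anhydrase, was at 11.4, 15.4 and 16.3 CPM, at 17.6, 14.8 and 18.2 CPM and at 9.29, 10.7 and 9.10 CPM in the same groups. All 5 were above sham in every injured library, which the choice by likeness favours. Within the family, r with Mcm6 was 0.65 for Mcm8, 0.60 for Mcm10, 0.47 for Mcm3, 0.39 for Mcm4, -0.04 for Mcm7, -0.10 for Mcm2, -0.48 for Mcm9 and -0.81 for Mcm5.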

How the data were processed

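The deposited values were raw counts of reads per Ensembl gene, made with featureCounts 2.0.6 over exons of Ensembl release 98 on GRCm38, per the file headers. HISAT2 and Trim Galore are named in the submitters' processing notes. By the command in the header, mates were counted singly, strand was ignored, and reads that map to several places or to overlapping genes were not counted. Symbols, positions and exon lengths came from GENCODE M21 (Ensembl 96, GRCm38), which matched 55240 identifiers.

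Libraries were grouped by title. Genes were filtered with filterByExpr and tested with edgeR 4.0.16 (R 4.3.3), quasi-likelihood, TMM factors, all 9 libraries (36452443 to 39590872 counts) in 1 fit, with Benjamini-Hochberg adjustment and a threshold of 0.05. CPM uses TMM factors, and log2 CPM a prior count of 2. The fit was run on simulated counts with the same spread in all groups and independent libraries. The groups here differ in spread, so error rates for them were not tested. Members, lists and tests were chosen with earlier results of these data known. Named were all members, Tmsb4x, the 5 genes most like Mcm6, the 2 genes of smallest p per list and comparison, coding neighbours within 1 Mb and the most abundant markers, while Pcna, Mki67 and Cdc45 were chosen after their values were seen. A few genes that this rule names are not reported here. Alternatives used DESeq2 1.42.0, limma 3.58.1, other scaling and filters, fewer libraries and a replicate block.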

Additional observations from a re-analysis of the deposited data

How the results depend on the processing

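The log2 fold change of Mcm6 over sham stayed between 1.02 and 1.35 in CKO mTBI and between 1.25 and 1.60 in WT mTBI in all 19 alternatives run, and 0 of the 9 members were called between the injured groups in any of 18. With limma voom that difference was 0.067 for Mcm6 and 0.012 for Mcm4, and without replicate 1 of both injured groups 0.090 and 0.050, all with turned sign. With 1 library left out it ranged over -0.11 to 0.038 for Mcm4, -0.24 to 0.0036 for Mcm3, -0.10 to 0.0077 for Mcm7 and -0.47 to 0.12 for Mcm10, turned signs included. Mcm10 in WT mTBI over sham was 0.09 without WT mTBI replicate 3. The rank of Mcm6 per length was 2 to 3 in CKO mTBI, 2 to 3 in WT mTBI and 5 to 6 in sham with 1 library left out. On exon length without shared bases, an alternative chosen after seeing the data, it was 3 in WT mTBI and the same as reported in the other 2 groups. Tmsb4x in CKO mTBI over sham ranged over -0.0089 to 0.33 with 1 library left out. Counts of genes called depended on the settings. For CKO over WT mTBI, WT mTBI over sham and CKO mTBI over sham they were 3, 102 and 14 as reported, 18, 541 and 226 with DESeq2, 68, 676 and 387 without a count filter, 1, 253 and 71 with only the 6 libraries compared, and 24, 523 and 337 without replicate 1 of both injured groups. With limma voom the comparisons with sham gave 722 and 279, and with the sham libraries summed to 1 sample, which leaves fewer samples, 1 and 0. A stricter filter gave 64 for WT mTBI over sham. With 1 library left out the counts ranged over 2 to 7, 5 to 252 and 2 to 128. The first range had 5 without WT mTBI replicate 1 and 7 without WT mTBI replicate 3. The second had 252 without CKO mTBI replicate 1, 40 without CKO mTBI replicate 3, 26 without WT mTBI replicate 3, and 5, 5 and 9 without sham replicates 1 to 3. The third had 128, 26 and 5 without CKO mTBI replicates 1 to 3, 56 without WT mTBI replicate 1, and 3, 2 and 5 without sham replicates 1 to 3. Of the replication lists, an alternative chosen after seeing the data called 1 gene, Psmc3ip, in CKO mTBI over sham without a count filter, and 1 gene, Gmnc, in each comparison with sham without replicate 1 of both injured groups. Those replicates held the lowest Gmnc of their groups, so nothing is read from that call. Leaving out libraries leaves fewer samples, and otherwise the cause of these shifts was not tested. With the replicate number as a block the counts were 3, 107 and 13, and Mcm6 was at -0.17 between the injured groups. Same-numbered libraries did not deviate together (correlations of -0.09 to 0.07), so the numbers were not taken as pairs. Depth limits Mcm10, whose counting error alone is 21.5% to 26.0% of its level per library.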
